A study of Mus musculus with 45 samples.

Results

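The maxillary prominences are the paired facial buds that form the sides of the upper jaw, the cheeks and the palatal shelves. Their mesenchyme was compared here between embryonic days E12.5 and E11.5. Arrays were chosen by their titles, 3 of maxillary process mesenchyme at E11.5 and 3 at E12.5, out of 45 arrays in the series. All embryos were inbred wild-type C57BL6/J mice, and no group carried an allele or a treatment. Prominences were microdissected, digested with Dispase II, an enzyme that loosens the basement membrane, and peeled into ectoderm and mesenchyme. Each array holds RNA of a separate pool of several embryos. The tissue is therefore a bulk mixture of neural crest-derived and mesodermal mesenchyme with vessels, blood, nerve and any ectoderm left after peeling. Expression was measured on Affymetrix Mouse Gene 1.0 ST arrays as RMA values in log2 units. A value is a level on one probe set, and a difference is E12.5 minus E11.5. Mandibular mesenchyme, frontonasal mesenchyme and maxillary ectoderm, with 3 arrays at each age, served as comparison tissues.

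Between these ages the maxillary mesenchyme passes from a proliferating, patterned bud to a tissue that condenses into bone anlagen and grows out the palatal shelves. Neural crest cells give rise to most of this mesenchyme, and the overlying epithelium directs it through secreted Hedgehog, FGF, BMP and WNT signals. Hedgehog ligand from the oral epithelium binds PTCH1 on the mesenchyme and releases GLI transcription factors, whose targets include Ptch1, Gli1 and Hhip. Fibroblast-like mesenchyme meanwhile begins to lay down collagen, proteoglycan and elastic fibre matrix.

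The labelled tissue was checked against its markers. Prrx1, a homeobox gene of facial and limb mesenchyme, lay between 11.40 and 11.60 on the 6 arrays. Hand2, a transcription factor of the lower jaw, had mean levels of 5.61 at E11.5 and 6.01 at E12.5, against 8.53 and 8.62 in mandibular mesenchyme. Otx2, a marker of forebrain and frontonasal tissue, was detected above background on 1 of the 6 arrays. The epithelial adhesion gene Cdh1 was detected on every array, between 5.59 and 7.22, and was highest in replicate 2 at each age.

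One array stood apart. E12.5 replicate 1 had a median level of 6.17, against 6.03 on the other E12.5 arrays and 6.0 to 6.02 at E11.5. It detected 26532 probe sets, against 25215 and 25425 in replicates 2 and 3 and 24178 to 24755 at E11.5. Its range of signal was compressed. In the bin of tested probe sets with a mean level of 4.63, it lay 0.29 above the mean of the other E12.5 arrays, and in the bin with a mean level of 8.16 it lay 0.19 below it. Estimated array weights gave it 0.224, the lowest of the 6, where the other 5 had between 0.932 and 2.34. The counts below are given with all 6 arrays, and many are also given without this array. A count given only once can change without it.

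**Figure D1:**
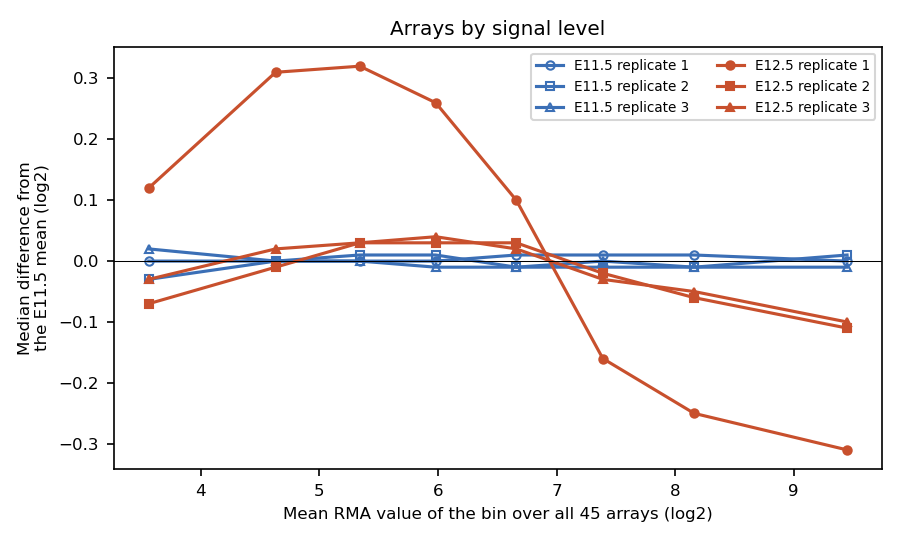
Median difference of each of the 6 arrays from the mean of the E11.5 arrays (y axis, log2) in 8 bins of tested probe sets by mean level (x axis, log2). E12.5 replicate 1 rises to 0.32 in a bin of dim probe sets and falls to -0.31 in the brightest bin, while the other E12.5 arrays stay between -0.11 and 0.04.

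Of 14472 probe sets tested with limma, 3514 passed an adjusted p of 0.05, which is 24.3% of them. Higher at E12.5 were 1616 (11.2%) and lower were 1898 (13.1%). Without E12.5 replicate 1 there were 2224 calls, 1247 higher and 977 lower, and 2148 of these were also called with all arrays. The median difference over all tested probe sets was 0.0367 with all arrays and -0.0117 without that array. The difference reached 2-fold for 181 higher and 108 lower probe sets, and for 194 and 89 without that array. These are counts of probe sets and not of genes. Chd7 alone had 30 tested probe sets, all among the lower ones, with a median difference of -1.28. Levels at the 2 ages did not overlap for 5727 probe sets (39.6%). A symbol was at hand for 9272 tested probe sets, of which 2885 were called (31.1%), 1442 higher (15.6%) and 1443 lower (15.6%). All listed genes have a symbol, so these shares are the like ones for the list counts below.

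Egfl6, a secreted EGF-repeat protein of the extracellular matrix, read 6.34, 6.18 and 6.14 at E11.5 and 9.94, 9.77 and 9.69 at E12.5. The groups were far apart, with a difference of 3.58 ± 0.15 (SE), or 12-fold, and an adjusted p of 1.88e-19. Anxa1, a calcium-dependent phospholipid-binding protein, rose by 2.85 ± 0.24 from 4.67, 5.48 and 5.39 to 7.93, 8.28 and 7.88. Penk, the precursor of enkephalin peptides, rose 4.65-fold from 8.03, 8.27 and 8.24 to 10.49, 10.30 and 10.40. Also among the 20 largest rises were the vasopressin receptor gene Avpr1a (2.42 ± 0.29), the lectin gene Chodl (2.36 ± 0.24) and the adhesion gene Cntn4 (2.33 ± 0.14). The TEAD cofactor gene Vgll3 rose by 2.21 ± 0.15 and the transcription factor gene Nfix by 1.94 ± 0.15.

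**Figure D2:**
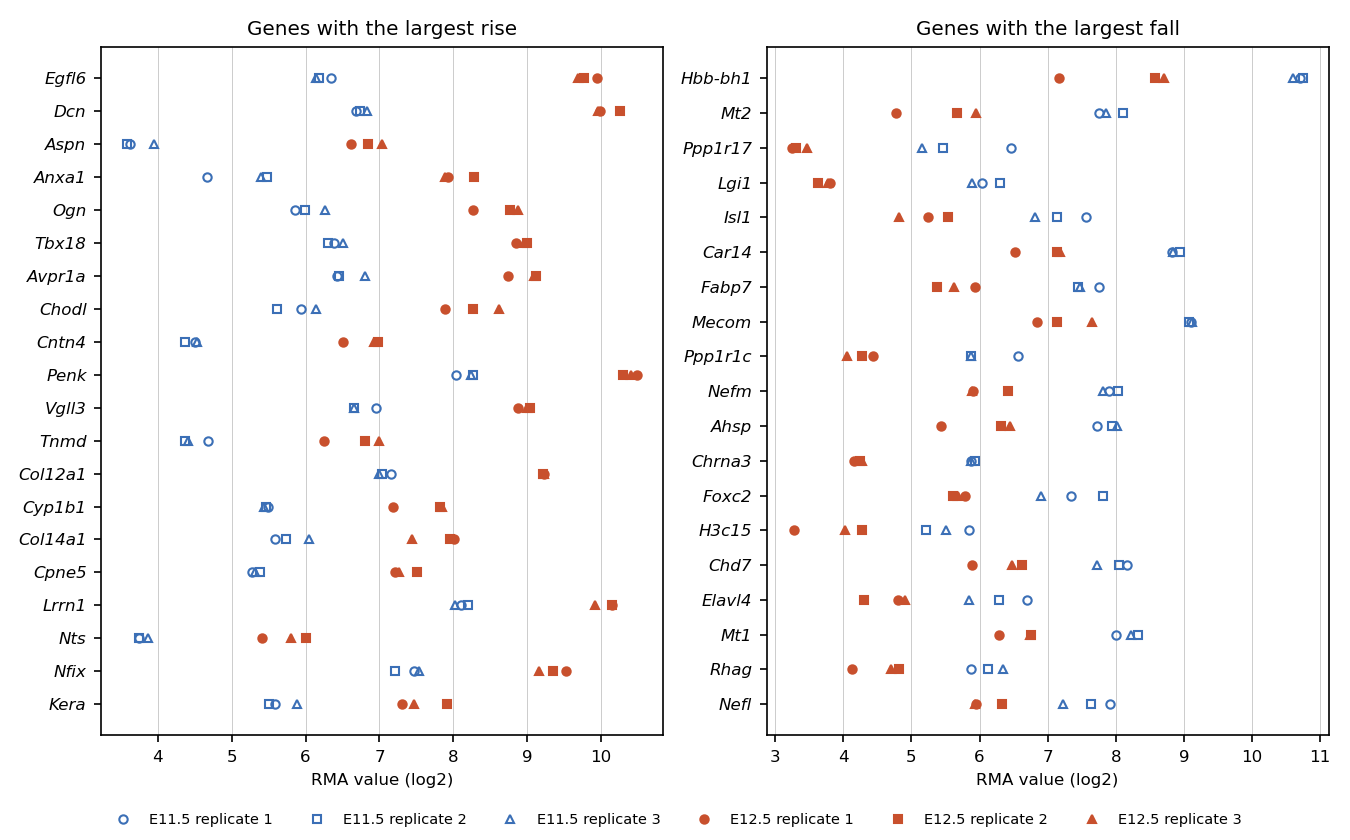
RMA values (x axis, log2) of called genes with the largest rise and the largest fall, 1 point per array. The 3 open symbols of E11.5 and the 3 filled symbols of E12.5 do not overlap for any gene shown, as the naming rule requires, and Egfl6 lies between 6.14 and 6.34 at E11.5 and between 9.69 and 9.94 at E12.5.

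Small leucine-rich proteoglycans bind collagen fibrils and set their diameter and spacing. In the list of these and other proteoglycans, 21 genes were tested, of which 11 rose and 1 fell, with a median difference of 0.41. Without E12.5 replicate 1, 10 rose and 1 fell. Decorin, Dcn, read 6.68, 6.73 and 6.83 at E11.5 and 9.98, 10.25 and 9.95 at E12.5, a 9.94-fold rise with an adjusted p of 1.80e-14. Asporin, Aspn, was detected on all 6 arrays and rose 8.67-fold from 3.62, 3.58 and 3.95 to 6.62, 6.85 and 7.03. Its E11.5 values were dim, near 3.56, the mean level of the dimmest of the 8 bins. The size of its fold is less certain for that reason. Osteoglycin, Ogn, rose by 2.61 ± 0.19 from 5.85, 5.99 and 6.26 to 8.27, 8.77 and 8.88. Several of these genes are neighbours in the RefSeq gene order, where Ecm2, Aspn, Omd and Ogn follow each other, as do Dcn, Lum, Kera and Epyc. Between Aspn and Ogn, Omd read 3.29, 3.47 and 3.89 at E11.5 and 3.6, 3.39 and 3.93 at E12.5, with a difference of 0.09 and an adjusted p of 0.695. Beside Dcn, keratocan (Kera) rose by 1.90 ± 0.18, lumican (Lum) had a difference of 0.75 ± 0.34 with an adjusted p of 0.114, and Epyc had one of 0.04 with an adjusted p of 0.883. The glypican gene Gpc4, which encodes a cell-surface heparan sulfate proteoglycan, rose by 1.25 ± 0.09, and biglycan (Bgn) by 1.09 ± 0.14.

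Of 27 listed collagens 25 had a named probe set and were tested, of which 16 rose and 0 fell, with a median difference of 0.55, and 13 rose and 0 fell without E12.5 replicate 1. Col12a1, a fibril-associated collagen of dense connective tissue, read 7.16, 7.03 and 6.99 at E11.5 and 9.23, 9.21 and 9.22 at E12.5. This 4.47-fold rise had an adjusted p of 3.06e-15, and the related Col14a1 rose 4.03-fold from 5.58, 5.74 and 6.05 to 8.01, 7.95 and 7.44. Type I collagen is the main protein of bone matrix. Its chain gene Col1a1 read 10.08, 10.01 and 10.05 at E11.5 and rose by 1.71 ± 0.22 to 11.86, 11.98 and 11.44, whereas Col1a2 differed by 0.68 ± 0.28 and did not pass (adjusted p = 0.0673). The 3 chains of the microfibrillar type VI collagen rose together, Col6a3 by 1.38 ± 0.24, Col6a2 by 1.11 ± 0.18 and Col6a1 by 1.09 ± 0.20.

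Matricellular and elastic fibre genes were the list with the highest median difference, 0.81, against 0.0367 over all tested probe sets. Of 37 tested, 25 rose and 0 fell, both with all arrays and without E12.5 replicate 1, and for 32 the E12.5 arrays lay above all E11.5 arrays, which holds for 18.4% of all tested probe sets. Efemp1, a fibulin, read 8.0, 7.91 and 8.09 at E11.5 and 9.82, 9.90 and 9.81 at E12.5, a 3.59-fold rise. Thrombospondin 2, Thbs2, rose by 1.8 ± 0.12 and thrombospondin 1, Thbs1, by 1.49 ± 0.12. Tenascin C, Tnc, an adhesion-modulating protein of condensing mesenchyme, rose 3.07-fold from 8.02, 7.68 and 8.0 to 9.35, 9.57 and 9.64. Lox, the enzyme that crosslinks collagen and elastin, rose by 1.45 ± 0.19, and Ltbp1, which stores latent TGF-beta in the matrix, by 1.33 ± 0.10. Among 32 matrix proteases and inhibitors, 14 rose and 1 fell, and 11 and 1 without E12.5 replicate 1. Pappa, a protease that cleaves IGF-binding proteins, rose 3.05-fold from 5.81, 5.90 and 5.71 to 7.32, 7.40 and 7.52. Mmp14, a membrane-bound collagenase, rose 2.03-fold, and the Adamts9 probe set used for the list rose by 0.82 ± 0.11.

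Of 22 osteoblast genes, 9 rose and 1 fell, with a median of 0.39, and without E12.5 replicate 1 the counts were 8 and 1. Alpl, the alkaline phosphatase of mineralizing cells, read 6.32, 6.13 and 6.34 at E11.5 and 7.95, 7.86 and 7.87 at E12.5, a 3.10-fold rise. Sp7, the osteoblast transcription factor osterix, rose 2.21-fold from 6.05, 6.30 and 6.09 to 7.30, 7.01 and 7.56. Mef2c, a transcription factor of muscle and bone, rose by 1.67 ± 0.18 and the matrix gene Sparc by 0.92 ± 0.07. The gene that fell was Msx2, a homeobox target of BMP signals, which read 7.85, 7.92 and 7.81 at E11.5 and 6.22, 6.20 and 6.75 at E12.5, a 2.77-fold fall. Of 25 cartilage genes, 6 rose and 6 fell, with a positive difference for 17 and a median of 0.22, which was 0.02 without E12.5 replicate 1. Sox5, which acts with Sox6 and Sox9 in chondrocytes, fell 2.38-fold from 8.10, 7.97 and 8.05 to 6.65, 6.72 and 6.99. Hapln1, the link protein of aggrecan, fell by 0.62 ± 0.16, and Pthlh, the parathyroid hormone-like peptide, rose by 0.62 ± 0.12. Without E12.5 replicate 1, 4 cartilage genes rose and 3 fell, and Hapln1 no longer passed. Tnmd, a tendon and ligament glycoprotein, rose 4.59-fold from 4.68, 4.37 and 4.41 to 6.25, 6.81 and 7.0.

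The mesenchyme identity list holds transcription factors and also other genes, such as Col3a1, Vim and Pdgfra. Of its 21 genes, 6 rose and 1 fell, and 5 and 1 without E12.5 replicate 1. Among all tested probe sets with a symbol, 31.1% were called, so this list lay near the general share. Ebf1, a helix-loop-helix factor of several mesenchymal lineages, rose 3.53-fold from 8.26, 7.99 and 7.80 to 9.71, 9.76 and 10.04, and Ebf3 rose 2.20-fold. Twist1, needed for the survival of cranial mesenchyme, differed by -0.27 and Prrx1 by 0.02, with adjusted p of 0.613 and 0.973. Palatal shelf regulators moved both ways, with 16 of 35 higher and 7 lower. Osr1, a zinc-finger factor of palate and limb mesenchyme, read 8.41, 8.18 and 8.33 at E11.5 and 9.77, 9.86 and 9.62 at E12.5, a rise of 1.44 ± 0.18. Meox2, a homeobox gene whose loss causes cleft palate in mice, rose 2.58-fold from 5.87, 6.04 and 5.86 to 6.83, 7.69 and 7.36. Shox2, a homeobox gene of the anterior palate, rose 2.08-fold, and Inhba, the activin subunit gene, rose 2.06-fold. Sim2 fell by 1.02 ± 0.17. The 7 falls of this list became 2 without E12.5 replicate 1 and 3 without E11.5 replicate 1, whereas the rises numbered 16 and between 14 and 16 over the 6 arrays left out in turn.

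The counts of falling patterning and dental factors depended on the arrays included. In the patterning list of 38, 4 rose and 10 fell with all arrays, and 3 and 4 without it. Leaving out E11.5 replicate 1 gave 2 and 6, and the rises numbered 7 without E11.5 replicate 2 and 2 without E12.5 replicate 2. Six4, a homeobox partner of the EYA proteins, fell 2.02-fold from 9.02, 8.95 and 8.76 to 7.54, 8.0 and 8.15, and its partner gene Eya1 fell by 0.72 ± 0.14. The orphan receptor gene Nr2f2 fell by 0.69 ± 0.11. Nr2f1 fell by 0.81 ± 0.26 with all arrays and differed by -0.72 without E12.5 replicate 1, where it did not pass. Meis1, a HOX cofactor, rose by 0.77 ± 0.13. In the dental list of 17, 7 rose and 7 fell, and 7 and 1 without that array; the fall that stayed was that of Msx2. Falls numbered 3 without E11.5 replicate 1 and 4 without E11.5 replicate 3. Pax9, which drives tooth and palate development, read 7.76, 7.73 and 7.94 at E11.5 and 6.93, 7.39 and 7.12 at E12.5, and its difference of -0.66 had an adjusted p of 0.00578 that was lost without E12.5 replicate 1.

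Among 19 T-box and forkhead genes, 3 rose and 6 fell, and 3 and 5 without E12.5 replicate 1. Tbx15, a regulator of skeletal mesenchyme, rose 3.11-fold from 8.24, 7.94 and 8.51 to 9.69, 9.94 and 9.97. Foxc2, a forkhead gene of paraxial and vascular mesenchyme, fell 3.15-fold from 7.34, 7.81 and 6.90 to 5.79, 5.61 and 5.68. Its relative Foxc1 fell by 0.59 ± 0.16 and Foxp2 by 0.73 ± 0.14. Tbx22, the gene of X-linked cleft palate in humans, fell by 0.69 ± 0.22 with an adjusted p of 0.0199 and did not pass without E12.5 replicate 1. The falls numbered 3 without E11.5 replicate 2. Tbx18 is uncertain, because one of its probe sets rose from 6.38, 6.30 and 6.51 to 8.85, 8.99 and 8.95 while the other, not detected on any of the 6 arrays, differed by 0.39 with an adjusted p of 0.173. Of 376 genes with several tested probe sets, 92 were called on one and not on another, and 2 were called in opposite directions. Chd7, a chromatin remodeller mutated in human CHARGE syndrome, was measured by 30 probe sets that all fell, by 0.64 to 1.65 with a median difference of -1.28.

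A receptor, a transcription factor and a decoy of the Hedgehog pathway rose at E12.5, while the ligand gene did not pass. Of 16 tested, 9 rose and 0 fell, with a median of 0.35, and without E12.5 replicate 1 the counts were 7 and 1, the fall being that of Foxl1. The ligand gene Shh, made in epithelium, was dim at 5.71, 5.92 and 5.29 at E11.5 and 5.91, 5.77 and 5.88 at E12.5, and these groups overlapped (adjusted p = 0.391). Ptch1, the receptor and a direct target, read 9.32, 9.32 and 9.20 at E11.5 and 10.10, 10.24 and 10.16 at E12.5, a 1.85-fold rise with an adjusted p of 2.79e-07. The transcription factor Gli1, whose transcription reports pathway activity, rose by 0.94 ± 0.12 from 8.33, 8.11 and 8.11 to 9.09, 9.21 and 9.06. Hhip, a decoy receptor that binds the ligand, rose 2.52-fold from 5.18, 5.02 and 4.86 to 5.98, 6.58 and 6.5. No E12.5 array of Ptch1, Gli1 or Hhip overlapped an E11.5 array. For 10 of the 16 genes the E12.5 arrays lay above all E11.5 arrays, which holds for 18.4% of all tested probe sets. Of the forkhead genes induced by Hedgehog in facial mesenchyme, Foxd1 rose by 1.29 ± 0.30 and Foxf1 by 0.62 ± 0.19, while Foxf2 differed by 0.30 with an adjusted p of 0.123. The coreceptor genes Boc and Cdon rose by 0.59 ± 0.10 and 0.30 ± 0.08, the activator gene Gli2 rose by 0.41 ± 0.12, and the repressor gene Gli3 differed by -0.03 (adjusted p = 0.845). Cdon and Gli2 did not pass without E12.5 replicate 1.

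The Hedgehog genes also differed from the lower jaw in their age effect. The age difference of each other tissue was subtracted from that of maxillary mesenchyme in the same limma fit, so a positive value means a greater rise or a smaller fall in maxillary mesenchyme. Against mandibular mesenchyme, 367 of 14472 probe sets differed in age effect (2.54%), 86 positive (0.594%) and 281 negative (1.94%). Of the 16 Hedgehog genes, 8 were positive and 1 negative, and 7 and 1 without E12.5 replicate 1. In mandibular mesenchyme itself 12.8% of probe sets rose with age and 6.67% fell. Ptch1 fell by 0.43 there, from a mean of 9.87 to 9.43, so that the age effects differed by 1.32 ± 0.16 (adjusted p = 1.43e-06). The difference of age effects was 0.99 ± 0.17 for Gli1 and 0.99 ± 0.19 for Hhip. Foxd1 had the largest positive value of all named genes, 3.16 ± 0.42, with a mean of 6.73 at E11.5 and 8.02 at E12.5 in maxillary mesenchyme and of 8.76 and 6.89 in mandibular mesenchyme. Foxf1 (1.35 ± 0.27), Foxf2 (1.17) and Foxl1 (0.87) were positive too, while Cdon was negative at -0.55 with a rise of 0.85 in mandibular mesenchyme.

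Against frontonasal mesenchyme, 400 probe sets differed in age effect (2.76%), 175 positive (1.21%) and 225 negative (1.55%). In frontonasal mesenchyme itself 8.87% of probe sets rose with age and 6.7% fell. Of the Hedgehog genes 5 were positive and 0 negative against it, among them Foxd1 by 2.48 ± 0.42, Foxf1 by 1.10 ± 0.27, Ptch1 by 0.95 ± 0.16 and Gli1 by 0.84 ± 0.17. Against maxillary ectoderm, the tissue that overlies this mesenchyme, 1206 probe sets differed (8.33%), 755 positive (5.22%) and 451 negative (3.12%). In that ectoderm 5% of probe sets rose with age and 5.62% fell. Of the Hedgehog genes 2 were positive and 5 negative, and 2 and 4 without E12.5 replicate 1. Ptch1 rose by 1.40 in the ectoderm and 0.89 in the mesenchyme, and Foxf2 by 1.58 in the ectoderm. The differences of age effects were -0.51 ± 0.16 for Ptch1 and -1.28 for Foxf2. Shh itself rose in the ectoderm, by 0.69 (adjusted p = 0.00472). The mesenchymal marker Prrx1 had an age difference of -0.14 in that ectoderm, with an adjusted p of 0.935, and of 0.02 in the mesenchyme. Of the 21 mesenchyme identity genes, 2 differed positively and 1 negatively in age effect against the ectoderm, with a median of -0.02. The part of mesenchyme left on the ectoderm in these rises was not tested. The age effects of the other tissues rest on arrays of their own, while all 3 differences share the 6 maxillary mesenchyme arrays.

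**Figure D3:**
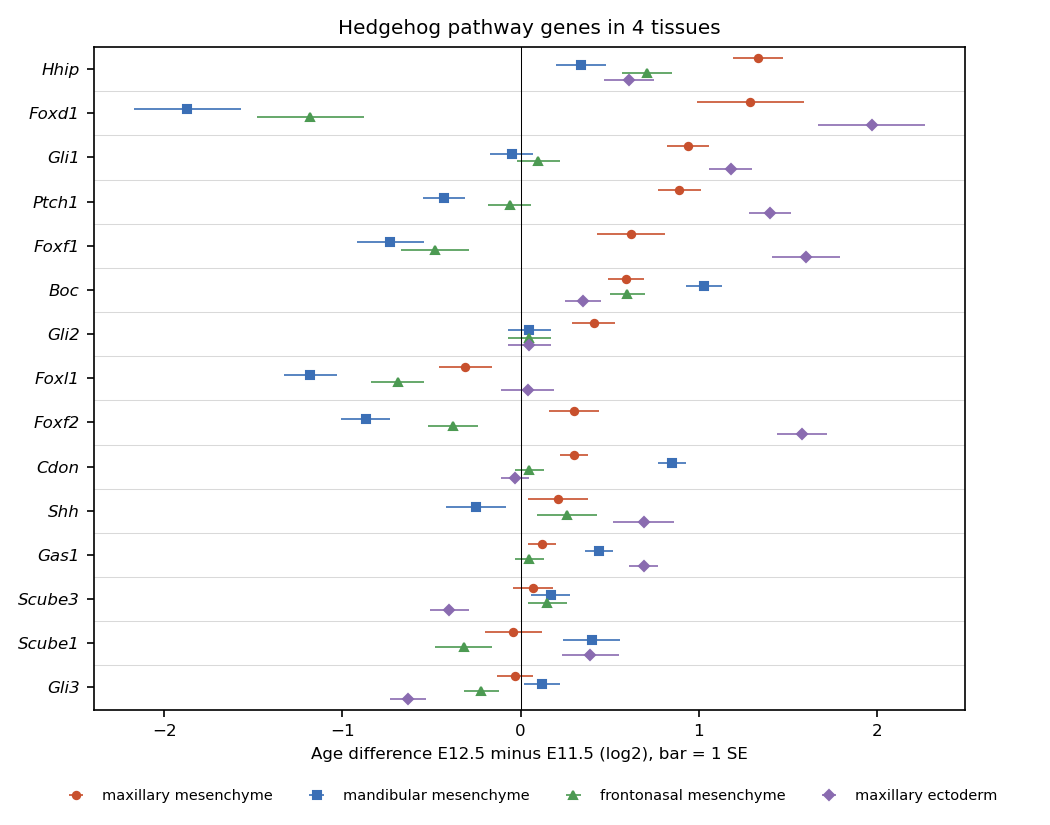
Age difference (x axis, log2, E12.5 minus E11.5) of tested Hedgehog pathway genes (y axis) in 4 tissues, with bars of 1 SE from the fit. Ptch1, Foxd1 and Foxf1 lie above 0 in maxillary mesenchyme and maxillary ectoderm and below 0 in mandibular mesenchyme.

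Of 26 tested genes of the FGF pathway, 6 rose and 6 fell, with a median of 0.01, and 5 and 5 without E12.5 replicate 1. The ligand gene Fgf18 rose 2.54-fold from 6.58, 6.95 and 6.76 to 8.11, 8.19 and 8.02, and the receptor genes Fgfr1 and Fgfr2 rose by 0.62 ± 0.13 and 0.60 ± 0.09. Dusp6, a phosphatase that FGF signals induce and that dephosphorylates ERK, read 10.54, 10.54 and 10.57 at E11.5 and 9.15, 9.49 and 9.41 at E12.5, a 2.30-fold fall. The ETS genes Etv1 and Etv4, also induced by FGF, fell by 1.27 ± 0.12 and 0.58 ± 0.11, and the feedback inhibitor gene Il17rd fell by 0.56 ± 0.11. Among 37 BMP and TGF-beta genes, 15 rose and 9 fell, and 12 and 5 without E12.5 replicate 1. The falls also numbered 5 when any E11.5 array or E12.5 replicate 2 was left out. The ligand genes Gdf10 and Bmp6 rose by 1.53 ± 0.16 and 1.16 ± 0.13, and the coreceptor gene Tgfbr3 by 1.14 ± 0.10. The receptor gene Bmpr1b fell by 1.13 ± 0.14.

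In the WNT list of 48 genes, 12 rose and 4 fell, against 31.1% called among tested probe sets with a symbol. Without E12.5 replicate 1, 9 rose and 2 fell. Rises numbered 7 without E11.5 replicate 3, and falls 2 without E11.5 replicate 2. Lgr5, the R-spondin receptor, rose 2.97-fold from 6.90, 6.78 and 6.89 to 8.24, 8.57 and 8.47. The secreted inhibitor genes Wif1 and Sfrp2 rose by 1.38 ± 0.19 and 0.72 ± 0.13, and the receptor gene Fzd4 fell by 0.88 ± 0.15. In the Notch list of 17, 4 rose and 1 fell, and the rises numbered 2 without E12.5 replicate 1 or without E11.5 replicate 3, where 3 fell. The ligand gene Jag1 rose 2.68-fold from 7.77, 7.78 and 7.67 to 9.07, 9.15 and 9.26. Of 16 IGF and PDGF genes, 6 rose and 0 fell, led by Igf2, the main fetal growth factor of this family, at 0.93 ± 0.08, and by Igfbp3 at 0.92 ± 0.13. Of 15 retinoic acid genes, 3 rose and 4 fell with and without E12.5 replicate 1. The degrading enzyme gene Cyp26b1 rose by 0.85 ± 0.17, while the retinol uptake gene Stra6 fell by 0.95 ± 0.17 and the receptor gene Rarb, a retinoic acid target, by 0.74 ± 0.11. The largest difference of the list was that of Cyp26a1, at -1.01, against the rise of its relative Cyp26b1. Aldh1a3 and Rdh10 differed by 0.58 and 0.52.

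Axon guidance and chemoattractant genes rose widely, with 30 of 48 higher and 2 lower and a median of 0.45. Without E12.5 replicate 1, 27 rose and 2 fell. For 34 the E12.5 arrays lay above all E11.5 arrays, which holds for 18.4% of all tested probe sets. The secreted repellent genes Sema3d and Slit3 rose by 1.42 ± 0.17 and 1.31 ± 0.16, and the receptor genes Robo2 and Unc5c by 1.03 ± 0.09 and 1.18 ± 0.11. Cxcl12, a chemokine that guides migrating cells, rose 2.29-fold from 8.54, 8.48 and 8.5 to 9.78, 9.79 and 9.53, and its receptor gene Cxcr4 rose 2.16-fold. Against maxillary ectoderm 18 of the list differed positively and 4 negatively, where 5.22% and 3.12% of all tested probe sets did.

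LIN28 proteins keep cells in an early developmental state by blocking the maturation of let-7 miRNAs, which in turn repress Lin28 genes and other growth genes. In the list of LIN28 and let-7 target genes, 11 of 18 fell and 1 rose, with a median of -0.41, and 10 and 1 without E12.5 replicate 1. Lin28b read 7.64, 7.44 and 7.48 at E11.5 and 5.99, 6.01 and 6.20 at E12.5, a 2.74-fold fall with an adjusted p of 1.09e-11. Arid3b, Mycn and Trim71 fell by 0.97 ± 0.12, 0.91 ± 0.12 and 0.83 ± 0.17, while Igdcc4 rose by 0.81 ± 0.12. The table also names 7 tested probe sets for miRNA or miRNA host genes, of which 2 were called, and these were chosen for mention after their values were seen. Mirlet7d fell by 1.06 ± 0.20 from 6.15, 5.84 and 6.03 to 4.76, 4.79 and 5.29, and Mir17hg fell by 0.73 ± 0.17. Mirlet7b differed by -0.07 with an adjusted p of 0.793. A probe set on a transcript of a miRNA locus does not measure the mature miRNA. The mature arms of both let-7 loci, from RefSeq on GRCm38.p6, share the seed at bases 2 to 8, printed in capitals, and so address the same target sites. Their positions are chr13:48536078-48536099 on the minus strand for let-7d and chr15:85707325-85707346 on the plus strand for let-7b.
mmu-let-7d-5p: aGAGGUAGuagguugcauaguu
mmu-let-7b-5p: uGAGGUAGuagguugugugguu

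Cell cycle and DNA replication genes fell. Of 42 listed, 25 had a named probe set and 24 were tested, of which 19 fell and 1 rose, with a median of -0.42, and 16 and 0 without E12.5 replicate 1. For 22 of them every E12.5 array lay below every E11.5 array, which holds for 21.2% of all tested probe sets. Rrm2, the ribonucleotide reductase subunit that supplies DNA precursors, read 10.78, 10.78 and 10.77 at E11.5 and 9.83, 10.14 and 10.21 at E12.5, a 1.64-fold fall. The replicative helicase genes Mcm7 and Mcm10 fell by 0.57 ± 0.07 and 0.67 ± 0.09, and the licensing inhibitor gene Gmnn by 0.72 ± 0.13. E12.5 replicate 1 was the lowest array for each of these 4 genes. Of 16 kinase inhibitors and cell cycle exit genes, 5 rose and 1 fell, with the same counts without that array. Cdkn1a, which encodes p21, rose 2.30-fold from 5.65, 5.81 and 5.59 to 6.58, 6.85 and 7.22, and Cdkn2c rose by 0.74 ± 0.15. Of 20 imprinted growth genes, 7 rose and 4 fell, with Plagl1 up by 1.02 ± 0.09 and Asb4 down, at a difference of -1.08 ± 0.25. Without E12.5 replicate 1, 7 of them rose and 3 fell. Glycolysis and hypoxia response genes moved both ways, with 4 of 20 higher and 8 lower, and 4 and 7 without E12.5 replicate 1. Eno1, the glycolytic enolase, fell by 0.40 ± 0.06, whereas the hypoxia-responsive Ndrg1 rose by 0.57 ± 0.11. Of 20 immediate-early and heat shock genes 3 rose and 1 fell, and the rises numbered 1 without E11.5 replicate 3 and 2 without E12.5 replicate 1.

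The metallothioneins Mt1 and Mt2 encode small proteins that bind zinc and copper, are induced by metals through the factor MTF1, and lie next to each other in the gene order. Mt2 read 7.75, 8.10 and 7.85 at E11.5 and 4.77, 5.67 and 5.95 at E12.5, a 5.41-fold fall with an adjusted p of 1.11e-12. Mt1 fell 3.00-fold from 8.01, 8.32 and 8.22 to 6.29, 6.76 and 6.74. Without E12.5 replicate 1, the lowest array for both, the differences were -2.09 for Mt2 and -1.43 for Mt1. In mandibular mesenchyme the age differences were -1.37 for Mt2 and -0.78 for Mt1, and in frontonasal mesenchyme -0.99 and -0.75. In maxillary ectoderm they were 0.43 and 0.38, so that the difference of age effects was -2.87 ± 0.26 for Mt2 and -1.97 ± 0.17 for Mt1. The 250 bases before the start of each gene are shown because the pair fell together, with the core of the metal response element in capitals. The letters searched were TGCACNC and TGCGCNC on both strands. Of 32851 RefSeq promoter windows of 250 bases, 21.4% hold at least 1 match and 1.26% hold 3 or more. The Mt2 window holds 3 and the Mt1 window 1. Each window ends at the RefSeq start, and bases beyond it were not searched, so these are not counts for the whole promoter. Both are on GRCm38.p6, plus strand, at chr8:94172368-94172617 and chr8:94178839-94179088. A match is a description of the letters and was not tested for binding.
Mt2: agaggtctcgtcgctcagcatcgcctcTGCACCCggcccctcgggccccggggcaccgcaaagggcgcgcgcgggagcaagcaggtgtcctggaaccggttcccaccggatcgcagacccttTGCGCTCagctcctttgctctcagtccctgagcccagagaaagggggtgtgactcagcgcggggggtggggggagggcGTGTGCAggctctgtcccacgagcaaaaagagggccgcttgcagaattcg
Mt1: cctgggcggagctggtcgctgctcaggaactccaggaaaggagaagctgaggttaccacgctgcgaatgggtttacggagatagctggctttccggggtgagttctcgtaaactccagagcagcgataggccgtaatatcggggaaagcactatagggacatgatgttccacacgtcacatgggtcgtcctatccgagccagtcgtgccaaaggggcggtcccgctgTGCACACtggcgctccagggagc

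Markers of other cells in the pools also changed with age, and in bulk tissue fewer cells of a type and less RNA per cell cannot be told apart. Red cell markers fell, with 14 of 19 lower and 0 higher, a median of -0.92, and 13 lower without E12.5 replicate 1. Their summed linear signal ran from 22540 to 24160 at E11.5 and from 16340 to 20180 at E12.5. Hbb-bh1, an embryonic beta-like globin gene of primitive red cells, read 10.71, 10.75 and 10.60 at E11.5 and 7.17, 8.58 and 8.71 at E12.5, a 5.79-fold fall. The haemoglobin chaperone gene Ahsp fell 3.56-fold. The difference was negative for 18 of the 19 markers and positive for 1, but its size varied among the globin genes. Hba-x differed by -0.85, Hbb-y by -0.12 and Hba-a1 by 0.06. E12.5 replicate 1 was the lowest array for both Hbb-bh1 and Ahsp, and without it their differences were -2.04 and -1.52. Hbb-bh1 also fell in mandibular mesenchyme (-2.48), frontonasal mesenchyme (-2.42) and maxillary ectoderm (-2.51). Differences from these effects were -0.06, -0.11 and -0.02, each with an SE of 0.55. Over the 19 markers, 0 differed in age effect from either other mesenchyme by the test. Against maxillary ectoderm 6 were negative and 0 positive, with a median of -0.58, and 7 were negative without E12.5 replicate 1. Of all tested probe sets, 3.12% differed negatively against that ectoderm.

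Neuron markers fell in maxillary mesenchyme, with 14 of 26 lower and 1 higher and a median of -0.41, and 13 and 0 without E12.5 replicate 1. Without E11.5 replicate 1 the falls numbered 8. The difference was negative for 20 markers and positive for 6, among them Scg2 (0.47), Stmn2 (0.34) and Gap43 (0.30). Summed signal of the list was 4526, 3938 and 3739 on the E11.5 arrays and 3487, 3640 and 3582 on the E12.5 arrays. Isl1, a LIM-homeobox gene of cranial sensory and motor neurons, read 7.56, 7.14 and 6.82 at E11.5 and 5.25, 5.54 and 4.82 at E12.5, a 3.92-fold fall. The neurofilament genes Nefm and Nefl fell 3.6-fold and 2.87-fold, and the neuronal RNA-binding protein gene Elavl4 fell 3.04-fold from 6.70, 6.28 and 5.84 to 4.80, 4.31 and 4.90. For Isl1 and Elavl4, E11.5 replicate 1 was the highest array. Of 14 glia and melanocyte markers, 3 fell and 1 rose, and Fabp7, a fatty acid-binding protein of glial precursors, fell 3.78-fold. Without E12.5 replicate 1, 2 of these markers fell and 0 rose. The glial factor gene Sox10 lay between 6.58 and 6.82 and differed by -0.12 (adjusted p = 0.615).

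Some neuron markers also differed in age effect from the other mesenchymes. Against mandibular mesenchyme 8 of 26 neuron markers differed negatively and 0 positively, and against frontonasal mesenchyme 9 and 0. Of all tested probe sets, 1.94% and 1.55% differed negatively. Without E12.5 replicate 1 the negative markers numbered 7 and 6, with 0 positive in both. These counts were not taken without E11.5 replicate 1, the array with the highest summed neuron signal. Nefl had means of 7.59 and 6.07 in maxillary mesenchyme but of 5.97 and 7.17 in mandibular mesenchyme, where it rose, and the age effects differed by -2.72 ± 0.41. Ppp1r17, a protein phosphatase inhibitor gene, went from 6.46, 5.46 and 5.15 to 3.25, 3.31 and 3.47, and it was detected on 1 of 3 arrays at E12.5. Its mean levels in mandibular mesenchyme were 3.36 and 3.23, and the age effects differed by -2.22 ± 0.38. Lgi1, a secreted synaptic protein gene, fell 5.05-fold, and its age effect differed from the mandibular one by -2.44 ± 0.37 and from the frontonasal one by -2.45 ± 0.37. The part that the neural markers play in the differences of other genes was not tested.

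Muscle markers rose in 15 of 27 cases with all arrays, with a median of 0.36, and 0 fell. The count was unstable, at 4 without E12.5 replicate 1 or E11.5 replicate 3, 7 without E11.5 replicate 1 and 9 without E12.5 replicate 2. Summed signal ran from 1609 to 1758 at E11.5 and from 2347 to 3377 at E12.5, and 24 of the list were detected on all 6 arrays. The cardiac-type actin gene Actc1 rose 2.80-fold from 9.08, 8.93 and 8.66 to 10.67, 10.56 and 9.89, while Myod1, the myogenic factor, overlapped between ages and differed by 0.27 (adjusted p = 0.318). Against mandibular mesenchyme 17 muscle markers differed negatively and 1 positively, where 1.94% and 0.594% of all tested probe sets did. The embryonic myosin gene Myh3 rose by 0.70 in maxillary and by 3.06 in mandibular mesenchyme, a difference of -2.36 ± 0.23.

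Of 23 endothelial markers, 5 rose and 1 fell, against 31.1% called among tested probe sets with a symbol. Without E12.5 replicate 1, 4 rose and 1 fell. Sox18 rose by 0.99 ± 0.19 and Erg by 0.88 ± 0.12, Fli1 fell by 0.92 ± 0.21, and the junction gene Cdh5 differed by 0.52 with an adjusted p of 0.124. Of 10 pericyte and smooth muscle markers, 6 rose and 0 fell, with a median of 0.44 and the largest rise for Tagln (1.16 ± 0.12). Their summed signal ran from 1180 to 1278 at E11.5 and from 1835 to 2077 at E12.5. Without E12.5 replicate 1, 4 of them rose and 0 fell. Among 20 macrophage and leukocyte markers 3 rose and 0 fell, and 2 and 0 without E12.5 replicate 1. The scavenger receptor gene Mrc1 rose by 0.74 ± 0.15, and Csf1r, the macrophage growth factor receptor gene, differed by -0.19 (adjusted p = 0.344).

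Epithelial markers followed the array more than the age. Their summed signal was 1877, 3468 and 1685 on the E11.5 arrays and 2167, 3354 and 1974 on the E12.5 arrays, so that replicate 2 held most at both ages. Of 34 tested, 4 rose and 0 fell. Krt5, a basal keratin gene, rose by 1.41 ± 0.31 and its partner Krt14 by 0.92 ± 0.32, although the ages overlapped for both, with Krt14 at 5.39, 6.97 and 5.18 and then at 6.21, 8.05 and 6.03. The number of rises was 11 without E11.5 replicate 2 and 2 without E11.5 replicate 3, and 4 fell without E12.5 replicate 2. Epithelial signal thus differed between arrays of 1 age, and its part in the age differences was not tested. Forebrain, eye and placode markers had 1 rise in 11, that of Emx2, at 1.02 ± 0.20, and the 11 tested Hox genes had 1, that of Hoxd3 at 0.40, which did not pass without E12.5 replicate 1. The 5 sex-linked genes did not differ by the test, with Xist at 0.46 (adjusted p = 0.372), and pools of mixed sex cannot be told apart from this value.

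Cyp1b1, which is in none of the lists, and Egfl6 had an age effect in maxillary mesenchyme that differed from that in each of the 3 comparison tissues. Cyp1b1, a cytochrome P450 monooxygenase gene, read 5.49, 5.47 and 5.44 at E11.5 and 7.18, 7.82 and 7.84 at E12.5. Its age difference of 2.15 ± 0.13 compares with 0.18, 0.09 and 0.06 in mandibular mesenchyme, frontonasal mesenchyme and maxillary ectoderm, and each difference of age effects passed (1.96, 2.06 and 2.08, each ± 0.18). In mandibular mesenchyme its mean was already 7.44 at E11.5. Egfl6 rose in all 3 other tissues too, by 2.31, 1.65 and 0.66, and its age effect in maxillary mesenchyme was larger by 1.27, 1.93 and 2.92, each ± 0.21. Nts, the neurotensin precursor gene, rose 3.87-fold from 3.74, 3.75 and 3.87 to 5.41, 6.01 and 5.80, and its age effect differed from the mandibular one by 1.75 ± 0.25 and from the ectodermal one by 1.88 ± 0.25. Against the frontonasal mesenchyme its difference was 0.57 ± 0.25 and did not pass.

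Other genes had larger age differences in a comparison tissue than in maxillary mesenchyme. Sfrp4, a secreted WNT inhibitor gene, went from a mean of 3.55 to 4.41 in maxillary mesenchyme and from 3.59 to 7.48 in mandibular mesenchyme, and its difference of age effects, -3.03 ± 0.36, was the largest negative one. Gpr50, an orphan receptor gene, had means of 5.35 and 5.91 in maxillary mesenchyme and fell from 10.36 to 8.12 in mandibular mesenchyme. Cnmd, which encodes chondromodulin of avascular cartilage, differed by 0.33 (adjusted p = 0.106) in maxillary mesenchyme and rose by 2.53 in frontonasal mesenchyme. Of the 25 cartilage genes, 10 differed negatively against frontonasal mesenchyme and 0 positively, where 1.55% and 1.21% of all tested probe sets did. In the maxillary ectoderm the LIM-homeobox gene Lhx2 rose by 2.14 and the serpin gene Serpinb5 by 1.84, whereas in the mesenchyme they differed by -0.10 and -0.15. Aspn, by contrast, rose in all 3 mesenchymes, by 3.12, 3.83 and 3.96, and differed by 0.15 in the ectoderm (difference of age effects 2.96 ± 0.29).

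**Figure D4:**
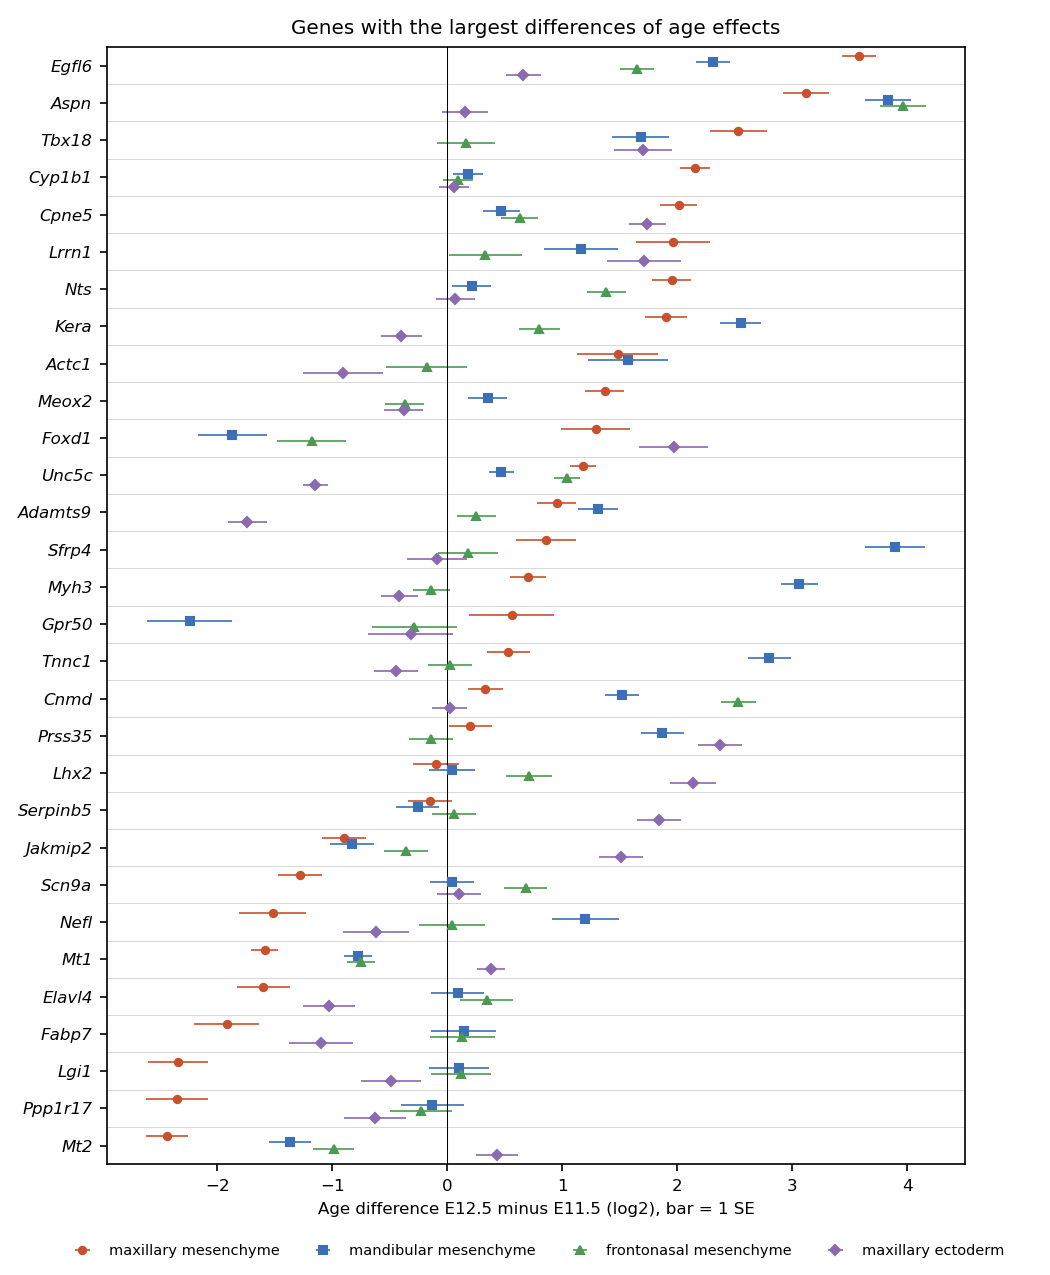
Age difference (x axis, log2, E12.5 minus E11.5, bars of 1 SE) in 4 tissues for the genes with the largest called differences of age effects (y axis), ordered by their value in maxillary mesenchyme. Cyp1b1 lies at 2.15 in maxillary mesenchyme and between 0.06 and 0.18 elsewhere, and Lgi1 at -2.34 against 0.10 and 0.12 in the other mesenchymes.

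**Figure D5:**
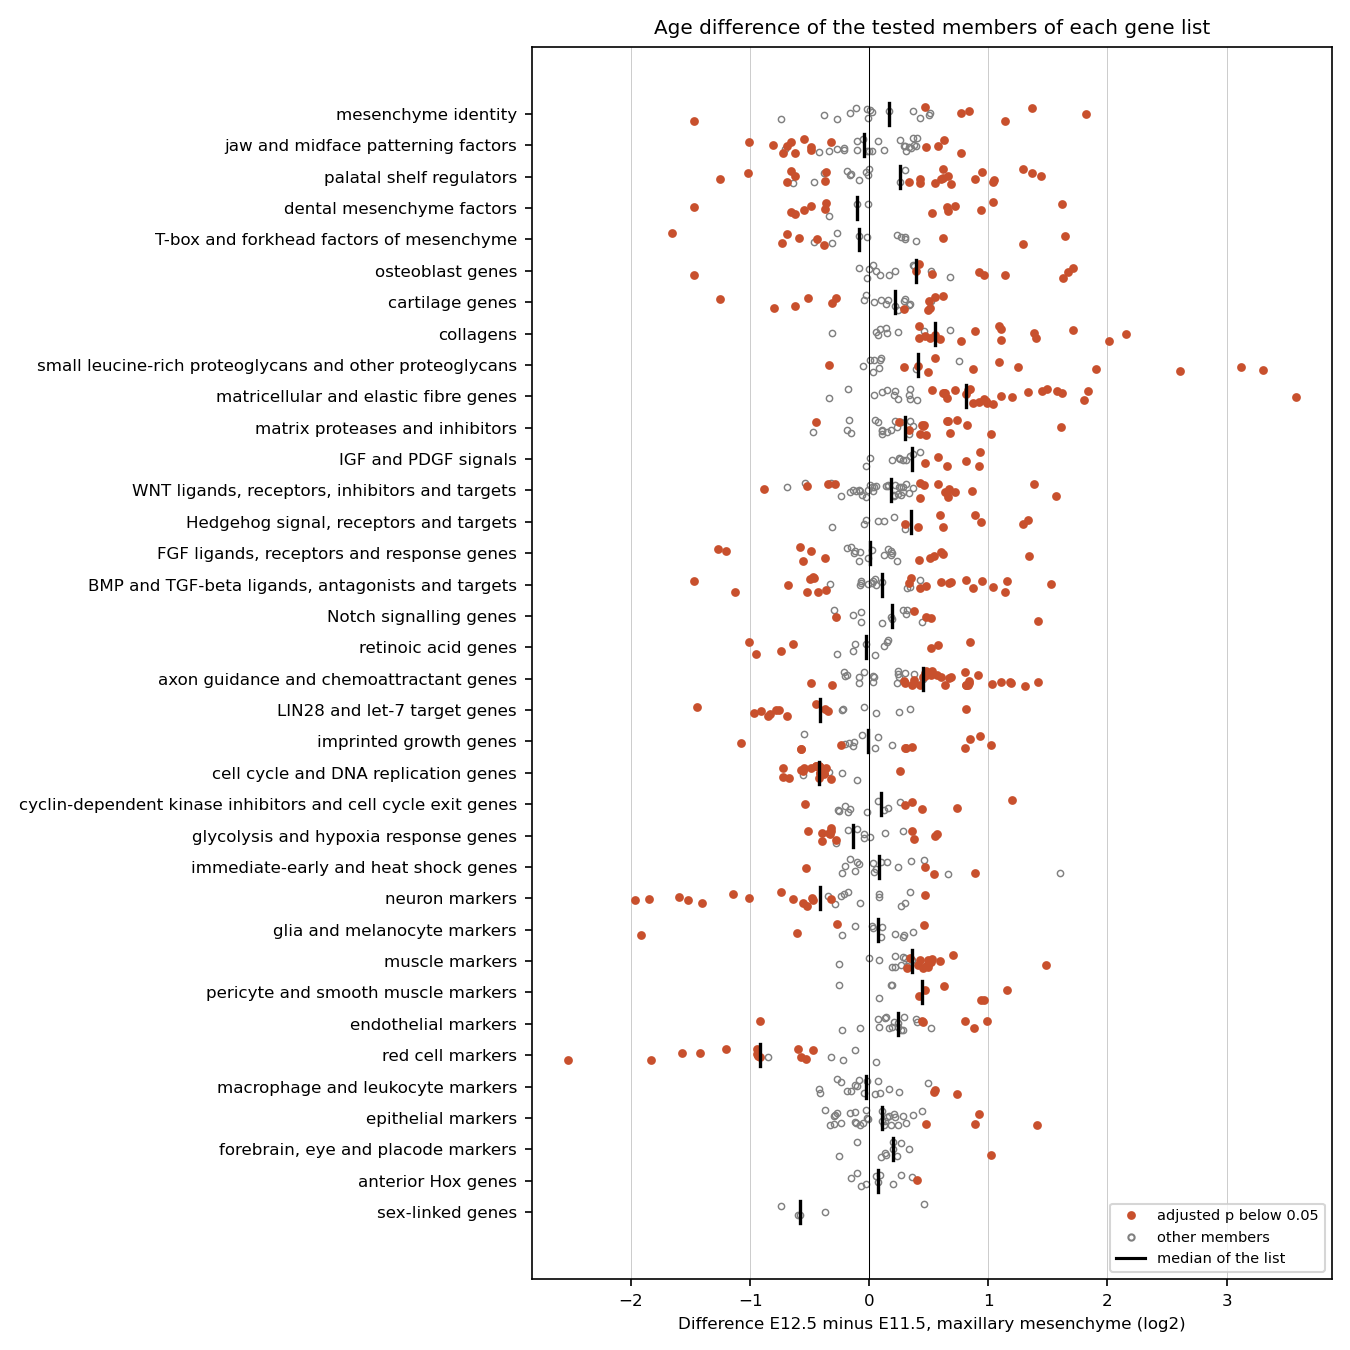
Age difference (x axis, log2) of tested members of the 36 gene lists (y axis), with called members filled and the median over all tested members of a list as a bar. Matricellular genes have the highest median, 0.81, and red cell markers the lowest, -0.92.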

How the data were processed

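Expression values were deposited as log2 values, made by the authors with RMA in Affymetrix Power Tools 1.91, per the submitters' processing notes, which also name the build mm9. RMA subtracts background, equalizes array distributions and summarizes probes, so global shifts between arrays are largely removed. Detection p-values above background were deposited with the values, per the file headers made with apt 1.8.0, and a p-value under 0.05 counted as detected. Gene symbols came from the authors' deposited model table (9626 probe sets), with old symbols updated through RefSeq synonyms. No batch or scan day is named in the labels, so none was modelled. Pools are biological replicates.

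Tests covered 14472 of 28944 probe sets, those whose variance across the 45 arrays exceeded the median variance (0.0414). limma 3.58.1 in R 4.3.3 fitted 15 group means to all 45 arrays, and its moderated p-values were corrected with the Benjamini-Hochberg method across these 14472, with a threshold of 0.05. Differences of age effects were contrasts of the same fit. Scripts were tested on simulated data. The only depth measure is signal over background, and 3 arrays per group limit the precision.

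Named genes are the 20 largest called differences in each direction whose groups do not overlap, up to 8 members per list by size of difference, the 6 largest called differences of age effects in each direction per tissue, and 7 marker genes. Further list members named are single cases chosen after their values were seen. The brightest probe set stands for a gene in a list. The 36 lists, the comparison and the rule were chosen with earlier results of these data known. Alternatives changed the filter, the arrays fitted, the moderation, the normalization, the weights and the replicate block, and left out each array. One was added after E12.5 replicate 1 was seen to stand apart. Some genes that the rule names are not reported here.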

Additional observations from a re-analysis of the deposited data

Results flagged for a closer look

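Effects of age in maxillary mesenchyme that differ by the test from those in another tissue are gathered here. They number 367 probe sets against mandibular mesenchyme, 400 against frontonasal mesenchyme and 1206 against maxillary ectoderm. Each value below is the age effect in maxillary mesenchyme minus that in the other tissue, on the log2 scale.

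Against mandibular mesenchyme the values were 3.16 for Foxd1, 2.80 for Gpr50, 1.96 for Cyp1b1, 1.75 for Nts and 1.54 for Cpne5. The other Hedgehog genes had 1.35 for Foxf1, 1.32 for Ptch1, 1.17 for Foxf2, 0.99 for both Hhip and Gli1, 0.87 for Foxl1 and -0.55 for Cdon. Negative values were -3.03 for Sfrp4, -2.72 for Nefl, -2.44 for Lgi1, -2.36 for Myh3, -2.27 for Tnnc1 and -2.22 for Ppp1r17.

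Against frontonasal mesenchyme the values were 2.48 for Foxd1, 2.38 for one Tbx18 probe set, 2.06 for Cyp1b1, 1.93 for Egfl6, 1.74 for Meox2 and 1.63 for Lrrn1. Hedgehog genes had 1.10 for Foxf1, 0.95 for Ptch1 and 0.84 for Gli1. Negative values were -2.45 for Lgi1, -2.20 for Cnmd, -2.12 for Ppp1r17, -2.05 for Fabp7, -1.96 for Scn9a and -1.94 for Elavl4.

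Against maxillary ectoderm the values were 2.96 for Aspn, 2.92 for Egfl6, 2.69 for one Adamts9 probe set, 2.39 for Actc1, 2.33 for Unc5c and 2.30 for Kera. Hedgehog genes had 0.72 for Hhip, 0.59 for Gli3, -0.51 for Ptch1, -0.57 for Gas1, -0.98 for Foxf1 and -1.28 for Foxf2. Other negative values were -2.87 for Mt2, -2.41 for Jakmip2, -2.24 for Lhx2, -2.16 for Prss35, -1.99 for Serpinb5 and -1.97 for Mt1.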

How the results depend on the processing

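Of 269 called gene results, 223 were called under every alternative run, as were 39 of the 40 largest age differences and 34 of 36 named differences of age effects, and 0 results reversed. The 40 and the 36 were chosen as the largest calls in these same arrays. That they stayed called is therefore no independent check. With 1 array left out at a time, calls between the ages ranged from 2224 without E12.5 replicate 1 to 3510 without E12.5 replicate 3, higher ones from 1247 to 1576 and lower ones from 977 to 1934. Lower calls numbered 2927 with no variance filter and 3027 with the detection filter, where more probe sets were tested and the totals were 4725 and 4901. Array weights gave 4611 calls, 2219 higher and 2392 lower. Centring arrays on their medians gave 3239 calls, 1154 higher and 2085 lower, so that 35.6% of calls were higher against 46.0% in the report. Array weights gave 888 differences against mandibular mesenchyme (276 positive, 612 negative), 982 against frontonasal mesenchyme (446 and 536) and 2204 against ectoderm (1269 and 935). Against ectoderm, fitting only the groups compared gave 716 (474 and 242), and median centring gave 491 positive. Leaving out 1 array gave 272 to 375 differences against mandibular mesenchyme, 295 to 358 against frontonasal mesenchyme and 948 to 1230 against ectoderm, where negative ones ranged from 271 without E12.5 replicate 1 to 507. The causes of these shifts were not tested. An alternative chosen after seeing the data, only the 5 maxillary mesenchyme arrays other than E12.5 replicate 1, gave 2774 calls, 1439 higher and 1335 lower. With the replicate number as a block there were 3530 calls between ages and 370, 394 and 1185 differences. Deviations of same-numbered arrays correlated at 0.0204, 0.0525 and 0.0763, and those of differently numbered arrays at -0.0654 to 0.0115. Same-numbered arrays were thus the more alike, though weakly, and the numbers were not taken as pairs in the main fit. Signal near background limits dim genes such as Ppp1r17.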
